A study of Mus musculus with 39 samples.

Results

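Dbp, Tef, Hlf, Nfil3, Ciart, Bhlhe40 and Bhlhe41 are transcription factors and repressors through which the circadian clock reaches its output genes, and they are described here in lung and colon of wild-type (WT) and Cd177 knockout (KO) mice after sham treatment or in acute pancreatitis (AP). The members were chosen by name: the rows of the lung table and of the colon table whose Ensembl identifier maps to one of these 7 symbols, which gave 7 of 55357 genes in each table (Dbp ENSMUSG00000059824.13, Tef ENSMUSG00000022389.16, Hlf ENSMUSG00000003949.17, Nfil3 ENSMUSG00000056749.8, Ciart ENSMUSG00000038550.11, Bhlhe40 ENSMUSG00000030103.12, Bhlhe41 ENSMUSG00000030256.12). All mice had the C57BL/6N background. The 39 RNA-seq libraries fall into 8 groups of tissue, genotype and treatment (WT sham, WT AP, KO sham and KO AP in each tissue), with 5 libraries in each group and 4 in the colon KO AP group, numbered 1, 3, 4 and 5. Levels are FPKM, fragment counts scaled by transcript length and by the size of the library, so they can be compared between genes per length. The study asked how loss of Cd177, a surface protein of neutrophils, bears on lung and colon in this disease. The sources used here do not give how and when pancreatitis was induced, how the knockout was made or the hour of tissue collection. Nothing says that libraries of a group came from separate animals, so the p-values measure the spread between these libraries, which may be technical. In bulk tissue, fewer cells of a type and less RNA per cell cannot be told apart.

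The clock runs on a feedback loop in which CLOCK and BMAL1 (gene Arntl) activate genes through E-boxes in their promoters and are held back by the PER, CRY and REV-ERB proteins they induce. Dbp, Tef and Hlf encode the PAR-bZIP activators, which bind a site called the D-box, and Nfil3 encodes a bZIP repressor that binds the same site, so the output of a D-box depends on their balance. Ciart encodes a repressor of the CLOCK-BMAL1 complex, and Bhlhe40 and Bhlhe41 encode basic helix-loop-helix repressors that bind E-boxes. Transcripts of all of these genes vary with the hour of the day in many tissues, Dbp with one of the widest swings. Nfil3 runs in the opposite phase to Dbp in liver. The hour of collection is not given for any group, so differences by genotype or treatment cannot be told apart from differences in hour.

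Ciart, Tef, Dbp, Bhlhe40 and Nfil3 differed between KO and WT colon in both treatments, Nfil3 in the opposite direction to the others. Bhlhe40 has no promoter in the RefSeq table, so promoters are shown for Ciart, Tef, Dbp and Nfil3. They are the 250 bases before the annotated start site, read 5′ to 3′ on the gene's own strand from RefSeq (build GRCm38.p6). Capitals mark a match to the E-box CACGTG or to the ROR motif AGGTCA, the site of the REV-ERB and ROR receptors, which appears as its reverse complement where it lies on the other strand. Both strands were searched, also for the D-box (TTATGTAA or TTACGTAA).
Ciart, chr3:95882229-95882478, minus strand: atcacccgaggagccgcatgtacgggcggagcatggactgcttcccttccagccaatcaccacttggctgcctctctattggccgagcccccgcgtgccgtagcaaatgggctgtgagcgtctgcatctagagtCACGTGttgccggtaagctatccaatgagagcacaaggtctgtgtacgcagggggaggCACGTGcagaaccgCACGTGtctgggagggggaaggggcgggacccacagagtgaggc
Tef, chr15:81802423-81802672, plus strand: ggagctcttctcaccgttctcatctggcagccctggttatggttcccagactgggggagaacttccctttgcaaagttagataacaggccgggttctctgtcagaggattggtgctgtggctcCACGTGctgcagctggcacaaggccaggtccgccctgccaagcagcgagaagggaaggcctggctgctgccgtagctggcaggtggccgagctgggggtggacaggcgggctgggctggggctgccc
Tef, second start, chr15:81811164-81811413, plus strand: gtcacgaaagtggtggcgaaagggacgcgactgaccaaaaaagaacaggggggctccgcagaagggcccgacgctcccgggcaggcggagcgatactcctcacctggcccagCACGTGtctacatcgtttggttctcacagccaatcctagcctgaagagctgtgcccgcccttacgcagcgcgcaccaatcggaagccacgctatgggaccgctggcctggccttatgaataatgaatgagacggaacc
Dbp, chr7:45704997-45705246, plus strand: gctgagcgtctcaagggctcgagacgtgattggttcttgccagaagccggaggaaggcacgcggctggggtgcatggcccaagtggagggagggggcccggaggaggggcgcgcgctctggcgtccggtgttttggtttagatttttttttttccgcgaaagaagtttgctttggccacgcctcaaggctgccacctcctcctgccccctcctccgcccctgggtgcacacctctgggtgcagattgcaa
Nfil3, chr13:52981040-52981289, minus strand: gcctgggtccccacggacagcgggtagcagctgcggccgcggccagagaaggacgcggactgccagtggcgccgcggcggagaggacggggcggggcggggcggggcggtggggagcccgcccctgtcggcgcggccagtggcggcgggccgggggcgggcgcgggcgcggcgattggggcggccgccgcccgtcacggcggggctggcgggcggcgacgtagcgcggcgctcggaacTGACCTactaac
Ciart held 3 E-boxes, beginning 116, 58 and 44 bases before the start. Tef held 1 E-box before each of its annotated starts, 127 and 138 bases upstream, and Bhlhe41 (chr6:145865421-145865670, minus strand, not printed) held 1 at 153 bases. These 3 genes were the only ones with an E-box among the 6 members with a promoter in the RefSeq table, all but Bhlhe40, where 6.02% of 32851 promoters of the same length held one. Dbp, Hlf and Nfil3 had no E-box in this window. The ROR motif was found in Nfil3 alone, 12 bases before the start, and 14% of all promoters hold it. No member had a D-box, which 0.931% of promoters hold. A match describes the letters of the window and is not a measured binding site.

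Cd177 was at 0 FPKM in every KO library of both tissues, and between 1.3 and 4.18 FPKM in WT lung and 38.5 and 76.4 FPKM in WT colon. Depth, read back from the steps between low FPKM values, came to 57900000 to 71200000 fragments in WT lung and 77000000 to 95400000 fragments in KO lung, and to 55600000 to 78300000 fragments in WT colon and 77700000 to 98600000 fragments in KO colon. A single fragment per kilobase was thus worth 0.0101 to 0.018 FPKM, far below the levels reported here. KO libraries were the deeper ones in lung without overlap, so depth and genotype cannot be told apart there. The lung epithelium markers summed to at most 3.47 FPKM in the colon libraries, and at least 37899.8 FPKM in the lung libraries. The colon epithelium markers summed to at least 2380.1 FPKM in colon and at most 159 FPKM in lung. In 6 libraries, all KO, the mean correlation with the other libraries of their group was under 0.94, a limit set after seeing the data (lung KO AP 3, KO sham 4 and 5, colon KO AP 1 and 4, KO sham 5). Without them the number of called members went from 3 to 2 for KO against WT in AP lung, from 4 to 3 in sham lung and from 5 to 6 in sham colon, and was the same number in the other comparisons. In AP colon that number stayed at 6 with Bhlhe41 (0.62, limma, adjusted p 0.0391) in place of Bhlhe40 (0.43, adjusted p 0.134), in sham colon Hlf passed (adjusted p 0.0437), and in lung Hlf in sham (adjusted p 0.0501) and Bhlhe40 in AP (adjusted p 0.0756) did not pass.

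Differences between groups were tested with limma on log2(FPKM + 1) over all 15978 genes tested in lung and 15001 in colon, and a gene was called at an adjusted p under 0.05. All 7 members passed the filter on low values in both tissues, Bhlhe41 in colon by only 5 libraries at 1 FPKM or more, and Hlf by 10. In WT lung, AP moved 2 of 7 members, Dbp up and Nfil3 down, where 0.0814% of all genes were called, 0.0250% higher and 0.0563% lower. Both calls were lost with no filter on low values, and with 1 library left out at a time Dbp passed in 12 of 20 fits and Nfil3 in 11 of 20. In KO colon against WT, Dbp, Tef, Ciart and Bhlhe40 were higher and Nfil3 was lower in both treatments, and Hlf was higher in AP mice. In sham colon 5 of 7 members were called, 4 higher and 1 lower, where 31.4% of all genes were called, 16.0% higher and 15.4% lower. In AP colon 6 of 7 were called, 5 higher and 1 lower, where 18.3% of all genes were called, 7.37% higher and 10.9% lower. In KO lung against WT, 4 of 7 members were called higher and 0 lower in sham mice, and 3 of 7 higher and 0 lower in AP mice. There 58.8% and 55.8% of all genes were called, 28.8% and 27.6% higher and 30.0% and 28.1% lower. With both directions pooled, the shares of members called in lung were near or below those of all genes. The members called there were all higher.

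AP against sham called 0 of 7 members in KO lung (0.0125% of all genes called, 2234 genes at an unadjusted p under 0.05), 0 of 7 in WT colon (0% called, 938 genes unadjusted) and 0 of 7 in KO colon (0.0400% called, 0.0200% higher and 0.0200% lower, 2798 genes unadjusted). Among the members, the unadjusted limma p was 0.038 for Bhlhe41 in KO lung, 0.00155 for Dbp in WT colon, and 0.0218 for Dbp and 0.00626 for Tef in KO colon. The test of whether AP acted differently in KO and WT called 0 of 7 members in lung (0% of genes called, 1384 unadjusted) and 0 of 7 in colon (0% called, 2821 unadjusted). Counted by libraries that did not overlap between groups, AP against sham in WT lung set 2 of 7 members higher and 1 lower (background 1.21% and 3.84%), and in WT colon 2 of 7 higher and 0 lower (1.29% and 1.09%). KO against WT gave 4 higher and 1 lower in sham colon (9.13% and 8.15%), 4 higher and 1 lower in AP colon (6.76% and 8.61%), and 2 higher in sham lung and 1 higher in AP lung (19.3% in each). No member was without overlap between AP and sham in KO mice of either tissue, where 0.532% of genes were higher and 0.376% lower in lung, and 1.56% and 1.31% in colon.

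**Figure D1:**
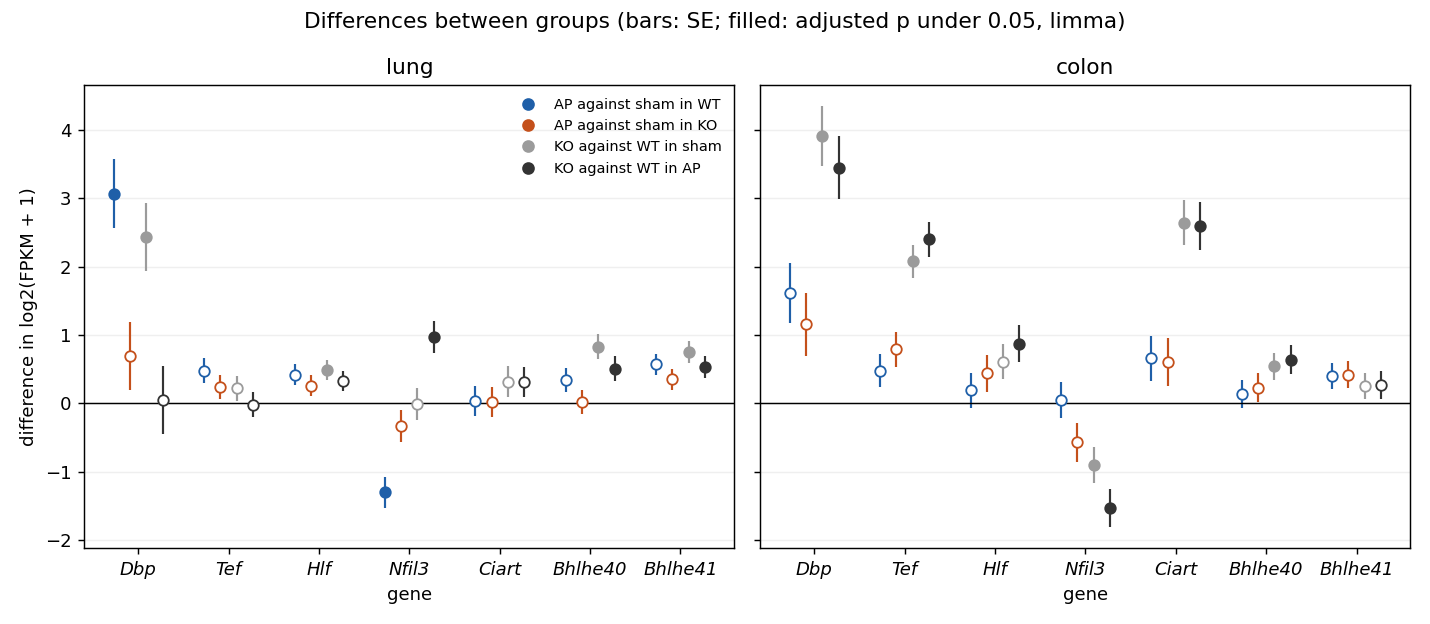
Differences in log2(FPKM + 1) of the 7 members between groups, in lung (left) and colon (right); points are limma estimates, bars are standard errors, and filled points passed an adjusted p under 0.05. In colon the KO against WT points of Dbp, Tef and Ciart lie above 2 and that of Nfil3 below 0, while in lung the filled point of AP against sham in WT mice is at 3.07 for Dbp and -1.3 for Nfil3.

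Dbp, the most strongly cycling of the PAR-bZIP activators, was lowest in WT sham among the lung groups, and every WT AP lung library lay above it. WT sham lung libraries read 3.29, 1.32, 4.78, 8.66 and 17.6 FPKM, and WT AP libraries 54.6, 26.6, 77.9, 69.8 and 49.3 FPKM. KO sham lung libraries read 33.9, 12.4, 28.5, 36.1 and 91.9 FPKM, and KO AP libraries 67.3, 41.9, 90.4, 65.3 and 27.9 FPKM. Both WT groups are thus separate, while KO sham spans a range that touches every other group. In WT mice Dbp rose with AP by 3.07 ± 0.50 (SE) on the log2(FPKM + 1) scale (limma, adjusted p 0.0268), the largest absolute difference of any gene tested in that comparison. This call was lost without any 1 of WT sham 1 to 4 or WT AP 1, 3, 4 or 5, where the difference was between 2.71 and 3.22 and the adjusted p reached 0.127 (without WT sham 2), and with no filter on low values (0.0598). In KO mice the difference of AP from sham was 0.69 ± 0.50 (adjusted p 0.536), and the test of the difference between these responses gave -2.38 ± 0.71 (p 0.00322, adjusted p 0.443). In sham lung Dbp was higher in KO by 2.43 ± 0.50 (adjusted p 0.000413), although KO sham 2 at 12.4 FPKM lay under the highest WT library. In AP lung the difference was 0.05 ± 0.50 (adjusted p 0.941).

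In colon Dbp spanned an even wider range and was higher in all KO libraries of a treatment than in the WT libraries of the same treatment. WT sham colon libraries read 1.06, 1.25, 1.45, 2.14 and 2.51 FPKM, and WT AP libraries 14.9, 4.85, 9.17, 4.03 and 6.31 FPKM. KO sham libraries read 108, 48.6, 40.8, 11 and 35.0 FPKM, and KO AP libraries 65.1, 131, 57.5 and 119 FPKM. The 2 WT groups did not overlap, nor did KO and WT within a treatment, but KO sham 4 at 11 FPKM lay below WT AP 1 at 14.9 FPKM. Against WT, Dbp was higher in KO by 3.91 ± 0.44 in sham colon (limma, adjusted p 3.7e-05) and by 3.45 ± 0.46 in AP colon (adjusted p 0.000378). Only 7 genes in sham colon, Dbp included, differed by as much in either direction. AP against sham in WT colon gave 1.62 ± 0.44 (limma, adjusted p 0.791). The limma result missed the threshold over all genes, although only 4 genes, Dbp included, had as large an absolute difference. The exact permutation p was 0.00794, the smallest that 5 against 5 libraries allow, and 0.0342 after adjustment over 56 comparisons of members between groups. Of these 56 comparisons, 28 had an exact permutation p under 0.05, and 19 after adjustment. That test was not run over all genes. In KO colon AP against sham gave 1.16 ± 0.46 (adjusted p 0.195), which became 1.53 (adjusted p 0.0314) without KO sham 1, the library at 108 FPKM.

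Dbp lies over an antisense neighbour: in the GENCODE annotation of GRCm38 it shares 539 exonic bases with Sphk2, a sphingosine kinase gene on the other strand, and the strandedness of the libraries is not given in the sources used here. Sphk2 had mean levels of 13.3, 16.7, 28.2 and 26 FPKM for WT sham, WT AP, KO sham and KO AP lung. In lung it was higher in KO by 1.01 ± 0.14 in sham (limma, adjusted p 7.25e-06) and by 0.61 ± 0.14 in AP mice (adjusted p 0.00112). In colon Sphk2 was not called in any comparison, with means from 22.8 to 30.5 FPKM over the 4 groups, and in WT lung its AP difference was 0.31 ± 0.14 (adjusted p 0.709). Of the other members, Bhlhe41 shares 1280 exonic bases with Gm43909, Tef 193 with Gm17597 and Bhlhe40 118 with 0610040F04Rik, all on the opposite strand, while Hlf, Nfil3 and Ciart share none.

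Tef, the activator with the highest level in lung, varied little there. WT sham lung libraries read 60.4, 72.9, 87.1, 82.5 and 113 FPKM, WT AP libraries 114, 89.4, 131, 99.6 and 143 FPKM, KO sham libraries 80.4, 71.7, 109.8, 103 and 119.5 FPKM, and KO AP libraries 105, 129, 90.8, 129.6 and 113 FPKM. All 4 lung groups overlapped and no comparison was called, the largest difference being 0.48 ± 0.18 for AP in WT (limma, adjusted p 0.579). In colon Tef separated the genotypes. WT sham colon libraries read 6.33, 6.89, 6.78, 5.97 and 5.68 FPKM, and WT AP libraries 11.5, 8.73, 10, 6.08 and 10.5 FPKM. KO sham libraries read 54.5, 31.0, 33.2, 16.7 and 25.5 FPKM, and KO AP libraries 35.9, 74.4, 47.0 and 61.6 FPKM. Every KO colon library thus lay above every WT one. The KO difference was 2.08 ± 0.24 in sham (adjusted p 4.32e-05) and 2.40 ± 0.26 in AP colon (adjusted p 8.37e-05). AP against sham in KO colon gave 0.79 ± 0.26 (adjusted p 0.134), and passed the threshold without KO sham 1 (1.01, adjusted p 0.015) and, at its edge, without KO AP 1 (0.98, adjusted p 0.05).

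Hlf, the least abundant PAR-bZIP gene, was highest in KO AP mice by group mean in both tissues. Lung libraries read 4.53, 2.99, 3.37, 3.28 and 4.07 FPKM for WT sham, 5.80, 4.09, 6.25, 3.97 and 6.16 FPKM for WT AP, 4.37, 4.42, 6.39, 5.18 and 7.64 FPKM for KO sham, and 6.34, 6.51, 7.31, 8.10 and 5.74 FPKM for KO AP. KO sham lung was higher than WT sham by 0.49 ± 0.15 (limma, adjusted p 0.00882), with an overlap of KO sham 1 and 2 with the highest WT library. That call was lost on the TPM scale, where each library is rescaled to the same sum (0.29, adjusted p 0.155). In AP lung the difference was 0.33 ± 0.15 (adjusted p 0.0674), and passed without WT AP 3 (adjusted p 0.0482) or KO sham 5 (adjusted p 0.0431). Colon libraries read 0.755, 0.844, 0.665, 0.855 and 0.736 FPKM for WT sham, 1.4, 0.945, 1.97, 0.782 and 0.350 FPKM for WT AP, 3.41, 0.976, 2.71, 1.02 and 1.22 FPKM for KO sham, and 1.13, 3.63, 3.55 and 3.09 FPKM for KO AP. In sham colon the genotypes did not overlap, although the difference of 0.61 ± 0.26 had an adjusted p of 0.0787 (0.0453 without KO AP 1). In AP colon Hlf was called at 0.87 ± 0.27 (adjusted p 0.0347) with an overlap at KO AP 1. Leaving out WT AP 2, 4 or 5 or KO AP 3, 4 or 5 lost this call (adjusted p 0.0599 to 0.103), as did dropping the filter on low values (0.0761), the TPM scale (0.08) and a fit of the compared groups alone (0.0686).

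**Figure D2:**
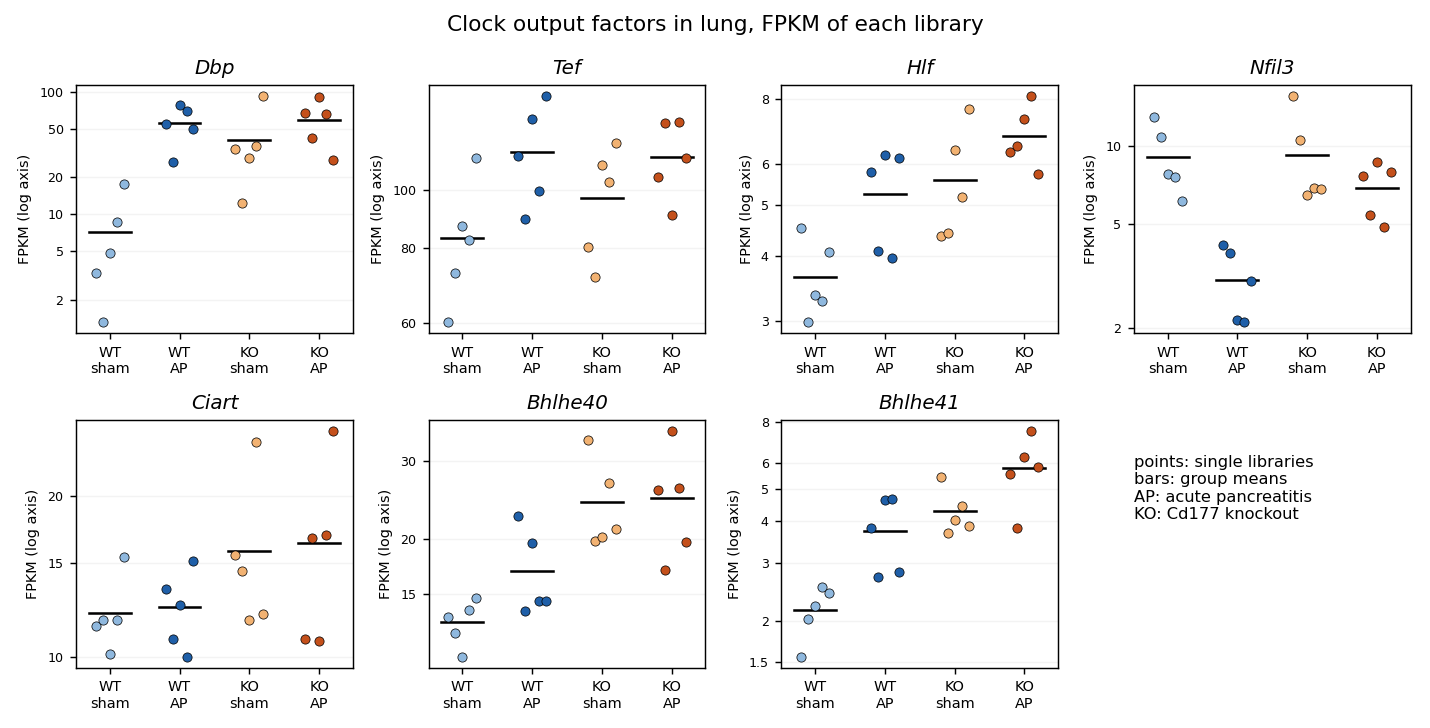
FPKM of the 7 members in each lung library on log axes; points are libraries, bars are group means, 5 libraries per group. Dbp in WT sham mice (1.32 to 17.6 FPKM) lies below all WT AP libraries, and Nfil3 in WT AP mice (2.11 to 4.16 FPKM) lies below all other groups.

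Nfil3, the repressor that competes with the PAR-bZIP activators for the D-box, was lowest in WT AP lung. WT sham lung libraries read 13.0, 10.9, 7.84, 7.65 and 6.15 FPKM, and WT AP libraries 4.16, 3.87, 2.15, 2.11 and 3.04 FPKM. KO sham libraries read 15.6, 10.6, 6.49, 6.89 and 6.87 FPKM, and KO AP libraries 7.66, 5.44, 8.68, 4.90 and 7.95 FPKM. No WT AP library reached the lowest library of any other lung group, and the other 3 groups overlapped. Nfil3 fell with AP in WT lung by 1.3 ± 0.23 (limma, adjusted p 0.0308), and in AP lung it was higher in KO than in WT by 0.97 ± 0.23 (adjusted p 0.00168). The call in WT lung was lost without the same libraries as that of Dbp and without WT AP 2, with an adjusted p of up to 0.155 (without WT sham 2) and a difference between -1.42 and -1.18 over all single omissions, and also with no filter (0.0752) and on the TPM scale (0.102). In KO lung the AP difference was -0.33 ± 0.23 (adjusted p 0.52), and the difference between the responses was 0.98 ± 0.33 (p 0.00761, adjusted p 0.478). In sham lung the genotypes differed by -0.01 ± 0.23 (adjusted p 0.982).

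In colon Nfil3 was lower in KO than in WT mice of both treatments. WT sham colon libraries read 4.89, 9.21, 4.22, 4.76 and 5.14 FPKM, and WT AP libraries 5.83, 5.78, 4.99, 5.59 and 6.25 FPKM. KO sham libraries read 1.02, 2.55, 2.70, 3.54 and 3.02 FPKM, and KO AP libraries 3.28, 0.816, 1.57 and 0.437 FPKM. Each KO colon library lay below each WT colon library. The difference was -0.90 ± 0.26 in sham (limma, adjusted p 0.014) and -1.53 ± 0.28 in AP colon (adjusted p 0.00183). AP against sham gave 0.05 ± 0.26 in WT colon (adjusted p 0.982) and -0.57 ± 0.28 in KO colon (adjusted p 0.271).

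The balance at the D-box was described by the summed FPKM of Dbp, Tef and Hlf over that of Nfil3 in each library, with no test. In lung its median was 12.2 in WT sham (5.23 to 21.9), 65.4 in WT AP (31.1 to 100.3), 20.9 in KO sham (7.61 to 31.9) and 23.3 in KO AP (18.4 to 41.4). In colon it was 1.74 in WT sham (0.975 to 2.11), 2.75 in WT AP (1.95 to 4.77), 28.4 in KO sham (8.1 to 163) and 162 in KO AP (31.2 to 421). WT sham and WT AP lung libraries did not overlap, and neither did KO and WT in colon. Dbp made up a median of 5.01% of the activator sum in WT sham lung and 31.3% in WT AP lung, against 25.1% in KO sham and 32.2% in KO AP lung. In colon its median share was 16.3%, 37.0%, 56.7% and 63.2% in WT sham, WT AP, KO sham and KO AP. The lung and colon tables were made separately, so the levels of the ratio in the 2 tissues are set side by side and were not tested.

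**Figure D3:**
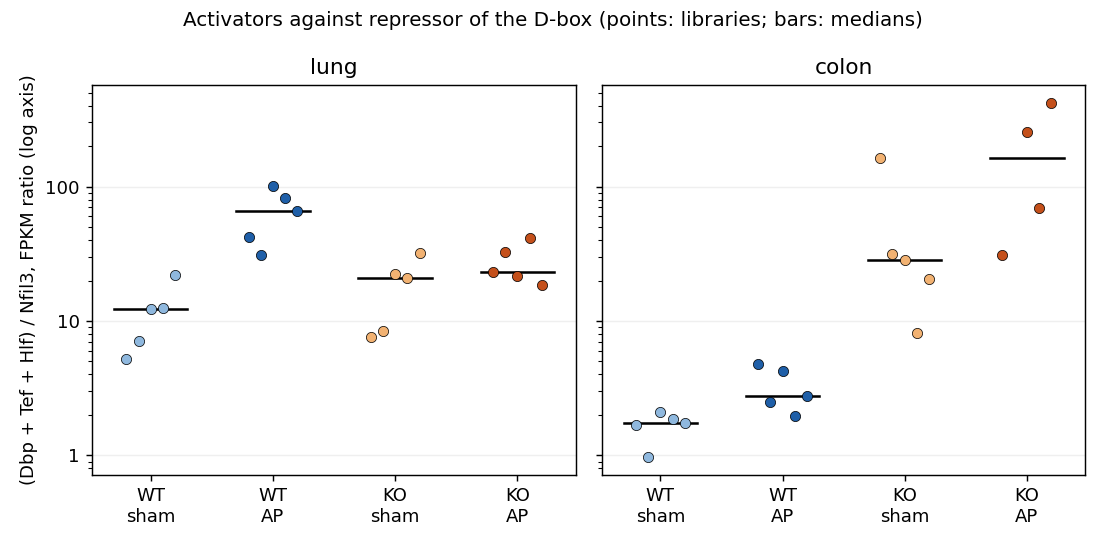
Ratio of the summed FPKM of Dbp, Tef and Hlf to the FPKM of Nfil3 in each library on a log axis, lung left and colon right; bars are medians. In colon all KO libraries (8.1 to 421) lie above all WT libraries (0.975 to 4.77), and in lung WT AP has the highest median, 65.4.

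Ciart, a repressor of CLOCK-BMAL1, was higher in KO colon, as Dbp was, and was called in no lung comparison. Lung libraries read 11.4, 11.7, 10.1, 11.7 and 15.4 FPKM for WT sham, 13.4, 10.8, 12.5, 10 and 15.1 FPKM for WT AP, 15.5, 14.5, 11.7, 25.3 and 12 FPKM for KO sham, and 10.8, 16.7, 10.7, 16.9 and 26.5 FPKM for KO AP. All lung groups overlapped, and the differences lay between -0.01 and 0.32. In colon WT sham libraries read 0.282, 0.251, 0.752, 0.712 and 0.856 FPKM and WT AP libraries 2.22, 0.977, 1.38, 0.996 and 1.88 FPKM. KO sham colon libraries read 18.4, 12.3, 10.2, 2.48 and 7.27 FPKM and KO AP libraries 13.1, 15, 8.64 and 20.5 FPKM. The WT sham, WT AP and KO sham groups were in separate steps, and the KO groups overlapped each other. KO colon was higher by 2.64 ± 0.33 in sham (limma, adjusted p 7.38e-05) and by 2.59 ± 0.35 in AP (adjusted p 0.000425). AP in WT colon gave 0.66 ± 0.33 (limma, adjusted p 0.801), although no library overlapped, and 0% of all genes were called in that comparison. The added 1 FPKM shrinks differences at these low levels, but with a pseudocount of 0.1 Ciart was still not called.

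Bhlhe40, which also responds to low oxygen, and Bhlhe41, its close relative, were higher in KO lung. Bhlhe40 lung libraries read 13.3, 12.2, 10.8, 13.8 and 14.7 FPKM for WT sham, 22.5, 13.7, 19.5, 14.4 and 14.4 FPKM for WT AP, 33.5, 19.7, 20.2, 26.7 and 21.0 FPKM for KO sham, and 25.8, 17.0, 35.1, 26.1 and 19.6 FPKM for KO AP. KO sham and WT sham did not overlap, while KO AP and WT AP did. The KO difference was 0.83 ± 0.18 in sham (limma, adjusted p 0.000716) and 0.51 ± 0.18 in AP lung (adjusted p 0.0247). The call in AP lung was lost without any 1 of WT AP 2, 4 or 5 or KO AP 1, 3 or 4 (adjusted p 0.0508 to 0.0781), with no filter (0.0522) and on the TPM scale (0.32, adjusted p 0.206). Bhlhe41 lung libraries read 1.56, 2.02, 2.22, 2.54 and 2.43 FPKM for WT sham, 3.82, 2.71, 4.63, 4.66 and 2.82 FPKM for WT AP, 5.46, 3.70, 4.03, 4.45 and 3.87 FPKM for KO sham, and 5.58, 3.83, 6.25, 7.51 and 5.85 FPKM for KO AP. WT sham lay below every other lung group. The KO difference was 0.75 ± 0.16 in sham (adjusted p 0.000423) and 0.53 ± 0.16 in AP (adjusted p 0.00765). The AP call was lost on the TPM scale (0.39, adjusted p 0.0752), and AP in WT gave 0.57 ± 0.16 (adjusted p 0.324).

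In colon Bhlhe40 was the most abundant member in WT mice and had the smallest differences among the called members. Its libraries read 33.9, 32.7, 36.3, 29.2 and 41.3 FPKM for WT sham, 34.5, 43.7, 35.4, 39.4 and 37.4 FPKM for WT AP, 68.7, 34.5, 44.7, 55.9 and 55.8 FPKM for KO sham, and 102, 52.7, 47.1 and 50.1 FPKM for KO AP. KO AP lay above WT AP, and KO sham 2 fell within the WT sham range. The difference was 0.54 ± 0.20 in sham (limma, adjusted p 0.042) and 0.64 ± 0.21 in AP colon (adjusted p 0.039). The sham call was lost without any 1 of KO sham 1, 4 or 5, WT sham 1 to 4 or WT AP 5 (adjusted p 0.0504 to 0.0991), with no filter (0.0786), and on the TPM scale and upper quartile scaling (0.282 and 0.0934). The AP call was lost without any 1 of the 5 WT AP libraries or of KO AP 1 or 3 (adjusted p 0.0514 to 0.113), and without KO AP 1, at 102 FPKM, the difference was 0.39. It was also lost with no filter (0.0723), on the TPM scale (0.187) and in a fit of the compared groups alone (0.0721). Bhlhe41 was low in colon and called in no comparison of all libraries. Its libraries read 0.434, 0.291, 0.462, 0.797 and 0.269 FPKM for WT sham, 0.996, 0.972, 1.28, 0.610 and 0.706 FPKM for WT AP, 1.38, 0.363, 0.765, 0.666 and 0.523 FPKM for KO sham, and 0.435, 2.04, 1.28 and 1.78 FPKM for KO AP, with all groups overlapping their neighbours in the order of means.

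**Figure D4:**
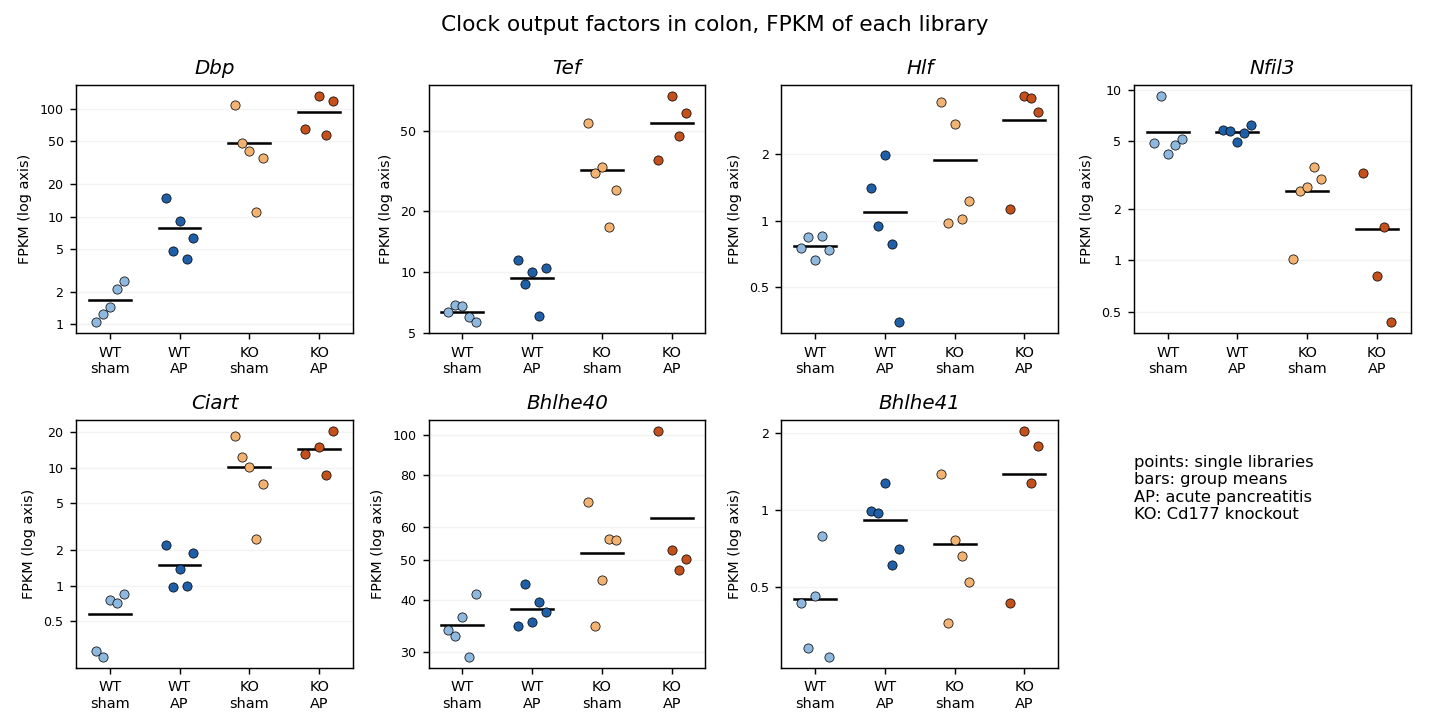
FPKM of the 7 members in each colon library on log axes; points are libraries, bars are group means, 5 libraries per group and 4 in KO AP. Tef, Ciart and Nfil3 separate all KO from all WT libraries, upward for Tef and Ciart and downward for Nfil3, and Bhlhe40 in KO AP 1 stands at 102 FPKM.

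Ordered by group means, the neighbours whose libraries did not overlap were few. In lung these were Nfil3 between WT AP (3.06 ± 0.946 FPKM, SD, n = 5) and KO AP (6.93 ± 1.66 FPKM), and Bhlhe41 between WT sham (2.15 ± 0.388 FPKM) and WT AP (3.73 ± 0.943 FPKM). In colon they were Dbp between WT sham (1.68 ± 0.618 FPKM) and WT AP (7.85 ± 4.40 FPKM), and Tef between WT AP (9.37 ± 2.09 FPKM) and KO sham (32.2 ± 14.0 FPKM). Nfil3 stepped in colon between KO sham (2.57 ± 0.945 FPKM) and WT sham (5.64 ± 2.02 FPKM). Ciart stepped between WT sham (0.571 ± 0.283 FPKM) and WT AP (1.49 ± 0.547 FPKM), and again between WT AP and KO sham (10.1 ± 5.90 FPKM). All other neighbours overlapped.

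Within groups, libraries with more Dbp had more Ciart and Tef in colon. After each value was centred on its group mean on the log2(FPKM + 1) scale, over 19 colon libraries, Dbp and Ciart gave Pearson r 0.92 (permutation p 2e-05, adjusted over 12 relations 0.00024) and Spearman rho 0.84 (adjusted p 0.0012). Dbp and Tef gave r 0.86 (permutation p 0.00151, adjusted 0.00906) and rho 0.77 (adjusted 0.0195). Without KO sham 1 and 4, the libraries farthest from the median of Dbp, r was 0.79 for Ciart (permutation p 0.00048) and 0.69 for Tef (permutation p 0.0277). Within WT libraries r was 0.80 and 0.58 (n = 10, no test), and within KO libraries 0.96 and 0.94 (n = 9, no test). Nfil3 ran against Dbp in colon, with r -0.61 (permutation p 0.0118, adjusted 0.0473) and rho -0.63 (adjusted 0.0333). That relation rested on KO sham 1 and 4, since r without them was -0.44 (permutation p 0.13), and it was -0.16 in WT and -0.75 in KO libraries. With the other members of colon, r of Dbp was 0.57 with Hlf, 0.49 with Bhlhe41 and -0.10 with Bhlhe40 (adjusted permutation p 0.0702, 0.0702 and 0.726). In lung, over 20 libraries, r of Dbp was 0.56 with Tef, 0.53 with Hlf, -0.50 with Nfil3, -0.14 with Ciart, 0.43 with Bhlhe40 and 0.45 with Bhlhe41 (adjusted permutation p 0.0662, 0.0662, 0.0702, 0.602, 0.0702 and 0.0702). By rank, 2 of the lung relations passed, with Bhlhe40 (rho 0.62, adjusted permutation p 0.0224) and Bhlhe41 (rho 0.60, adjusted permutation p 0.028), where the colon gave rho -0.22 (adjusted 0.459) and 0.56 (adjusted 0.0659). Without WT sham 2 and 5, the libraries farthest from the median of Dbp in lung, r was 0.44 with Bhlhe40 (permutation p 0.106) and 0.47 with Bhlhe41 (permutation p 0.0531). Libraries share their depth and tissue composition across genes, so these relations describe the libraries.

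**Figure D5:**
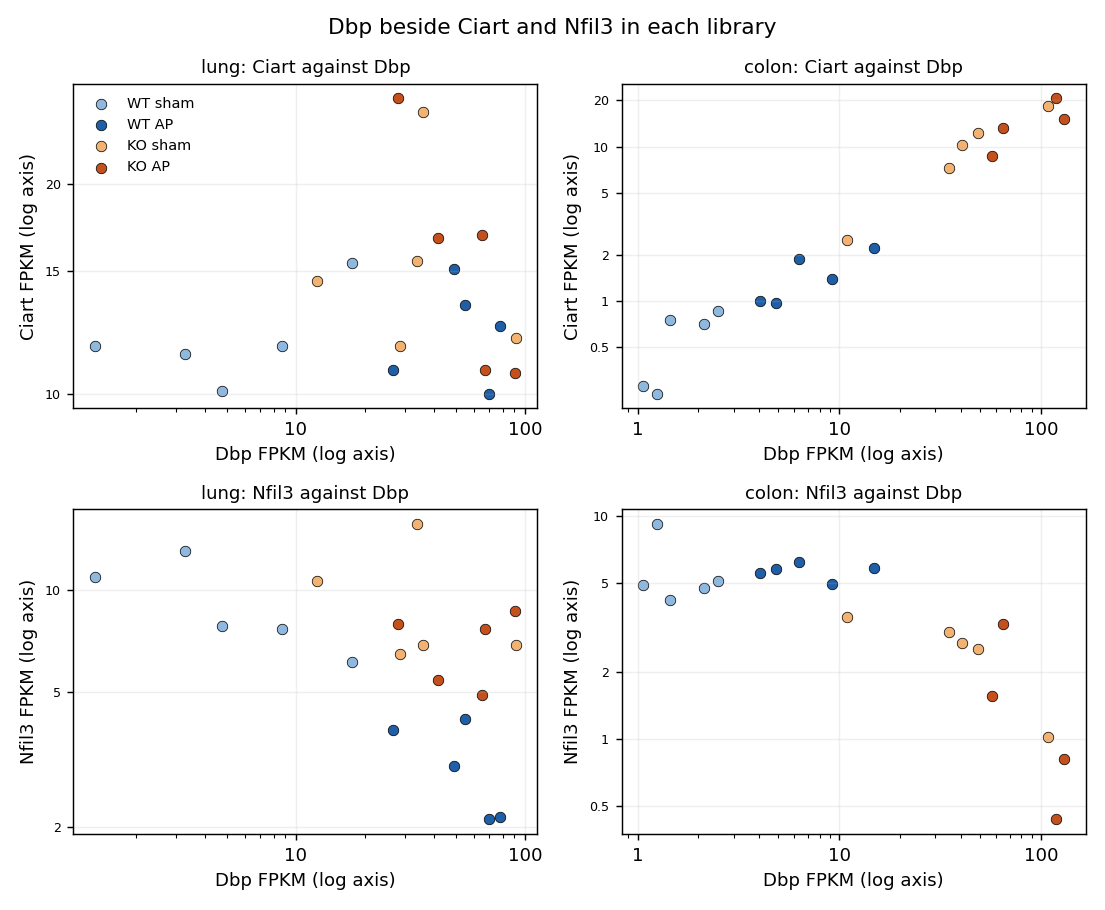
Ciart (top) and Nfil3 (bottom) against Dbp in each library, FPKM on log axes, lung left and colon right, coloured by group. Colon libraries line up from WT sham (Dbp 1.06 to 2.51 FPKM) to KO AP (57.5 to 131 FPKM) with rising Ciart, while in lung Ciart shows no such line (r -0.14 within groups).

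By the same group-centred measure over all genes tested, the genes most like Dbp in colon were Ciart (r 0.92), Tef (0.86) and Ccdc39 (0.83), and those most like Ciart were Dbp (0.92), Tcf23 (0.85) and Nr1d2 (0.82). In lung the genes most like Dbp were Hnrnpc (0.78), Nr1d2 (0.77) and Tnfaip8 (0.76), and for Ciart they were Mroh2a (0.88), Slk (0.87) and Zfp57 (0.85). Tef was nearest to Map4 (0.86), Dbp (0.86) and Camta1 (0.85) in colon and to Ipo13 (0.84) in lung. Nfil3 was nearest to Syngr2 (0.91) in colon and to Vps37b (0.83) in lung. No gene led for the same member in both tissues among these. Each value is the highest, or among the highest, of the correlations with all genes tested, and none was tested.

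Of the 16 genes of a core clock list, 15 were tested in lung and 14 in colon. In WT lung, AP called 0 higher and 1 lower, Arntl, which fell by 1.33 ± 0.22 (limma, adjusted p 0.0268) from a mean of 13.8 ± 2.33 to 5.04 ± 1.97 FPKM (SD, n = 5 each). The list's median difference was -0.18, where that of all genes was -0.014. KO against WT in sham lung called 2 higher and 7 lower, led by Arntl (-2.31 ± 0.22), Clock (-0.84 ± 0.10) and Csnk1e, a kinase of the PER proteins (-0.76 ± 0.12), with a list median of -0.42 against -0.011 for all genes. In AP lung 4 were higher and 6 lower, among them Cry1 (0.89 ± 0.17) and Clock (-0.52 ± 0.10), with a median of -0.34 against 0.004. Of all genes, 58.8% were called in sham and 55.8% in AP lung. In sham colon 4 were higher and 4 lower, led by Npas2, a partner of BMAL1 in place of CLOCK (-1.63 ± 0.20), Arntl (-1.98 ± 0.25) and Nr1d2, which encodes REV-ERB beta (1.08 ± 0.21). In AP colon 6 were higher and 2 lower, led by Per3 (1.93 ± 0.26), Per2 (1.89 ± 0.27) and Nr1d2 (1.46 ± 0.22). The list medians there were -0.09 in sham and 0.59 in AP, where all genes had 0.011 and -0.011, and 31.4% and 18.3% of all genes were called. Arntl was thus lower in KO in both tissues and both treatments, with -0.61 ± 0.22 in AP lung (adjusted p 0.0279) and -1.62 ± 0.27 in AP colon (adjusted p 0.00106). AP called 0 core clock genes in KO lung, WT colon and KO colon.

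Of 7 genes described as PAR-bZIP targets, mostly from liver and kidney, 6 were tested in lung and 5 in colon. KO against WT called 3 higher and 0 lower in sham lung and 2 higher and 0 lower in AP lung, led by Alas1, the first enzyme of haem synthesis (1.4 ± 0.23 and 1.97 ± 0.23), and Usp2, a deubiquitinase (0.59 ± 0.17 and 1.04 ± 0.17). Of all genes, 28.8% and 27.6% were higher and 30.0% and 28.1% lower in these comparisons. The list medians were 0.47 and 0.51, where those of all genes were -0.011 and 0.004. In colon Usp2 alone was called, higher by 1.32 ± 0.16 in sham (limma, adjusted p 4.52e-05) and by 1.51 ± 0.16 in AP (adjusted p 8.37e-05), with list medians of 0.49 and 0.37 against 0.011 and -0.011 for all genes, of which 16.0% and 7.37% were higher. AP against sham called 0 of these genes in either genotype and tissue.

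A list of 10 glucocorticoid-responsive genes gave 0 higher and 1 lower for AP in WT lung, Cdkn1a, a cell cycle inhibitor, which fell by 1.75 ± 0.26 (limma, adjusted p 0.025). KO against WT gave 2 higher and 6 lower in sham lung and 2 higher and 4 lower in AP lung, 0 higher and 2 lower in sham colon, and 0 in AP colon. The list's median difference was -0.8 for AP in WT lung, -1.14 and -0.52 for KO against WT in sham and AP lung, and -0.13 and -0.07 in sham and AP colon. Of 10 hypoxia-responsive genes, AP called 0 in either tissue. KO against WT called 5 higher and 4 lower in sham lung, 4 higher and 1 lower in AP lung, 2 higher and 0 lower in sham colon, and 1 higher, Bnip3, a mitophagy receptor (1.88 ± 0.29, adjusted p 0.000814), in AP colon. In the same comparisons 58.8% and 55.8% of all genes were called in sham and AP lung, and 31.4% and 18.3% in sham and AP colon, with all-gene medians of -0.011, 0.004, 0.011 and -0.011. The median difference of the hypoxia list was 0.43 and 0.34 in sham and AP lung and 0.15 and 0.18 in sham and AP colon.

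Marker sums also differed between several of the groups, and were not related to the members by any test. The counts of called markers stand beside these shares of all genes for KO against WT. In lung, 28.8% were higher and 30.0% lower in sham, and 27.6% and 28.1% in AP mice. In colon, 16.0% were higher and 15.4% lower in sham, and 7.37% and 10.9% in AP mice. In WT lung the 5 neutrophil markers summed to 118 to 333 FPKM in sham and 571 to 858 FPKM in AP, without overlap, and all 5 had a positive difference with 0 called. In KO lung that sum was 61.3 to 2864 FPKM in sham and 187 to 629.9 FPKM in AP, and 2 of 5 neutrophil markers were lower in KO AP than in WT AP. In lung the 4 endothelial markers summed to 818 to 1088 FPKM in WT and 219.7 to 1068 FPKM in KO, and 3 of 4 were lower in KO in each treatment. The 8 T and NK cell markers were all called lower in KO AP lung (9.63 to 45.3 against 47.6 to 224 FPKM in WT AP), and 1 of 8 in KO sham lung. The alveolar macrophage markers were called lower in KO lung, 6 of 6 in AP (33.9 to 269.7 against 186 to 415 FPKM) and 3 of 6 in sham (56.2 to 315 against 198 to 396 FPKM). Of the 4 smooth muscle markers, 3 were higher and 1 lower in KO AP lung (181 to 552 against 109.8 to 177 FPKM), and 2 higher and 1 lower in KO sham lung (177 to 331 against 111 to 136 FPKM). The adipocyte sum was 1.03 to 419 FPKM in KO AP lung, overlapping the 4.75 to 28.5 FPKM of WT lung. The cardiac muscle sum was 87.9 to 1665 FPKM in KO AP lung, overlapping the 73.1 to 274 FPKM of WT lung. In AP lung, KO against WT called 0 of 3 adipocyte markers (median difference -0.74) and 1 of 3 cardiac muscle markers, higher. In colon the endothelial sum was 15.6 to 30.4 FPKM in WT and 6.03 to 14.9 FPKM in KO, without overlap and with 4 of 4 markers lower in each treatment. The colon smooth muscle sum was 185 to 1182 FPKM in WT and 1121 to 3619.7 FPKM in KO, with 3 of 4 markers higher in each treatment. All 6 tested markers of T and NK cells were called lower in KO colon of each treatment. Their list summed to 1.24 to 4.78 FPKM in KO AP and 18.2 to 159.9 FPKM in WT AP without overlap, and to 1.9 to 129.8 FPKM in KO sham and 57.9 to 84.3 FPKM in WT sham, where the highest KO library lay above all WT sham libraries. In the mitochondrially encoded share of the FPKM sum, RNA quality and tissue composition cannot be told apart. This share was 10.6% to 19.1% in KO AP and 7.02% to 11.6% in WT AP colon. It was 4.62% to 13.5% in KO sham and 7.47% to 14.1% in WT sham colon. In lung it was between 2.49% and 14%, with KO and WT overlapping. No marker in these lists was at 0 in all libraries of a tissue. The part of these shifts in the differences of the members was not tested.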

How the data were processed

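RNA was sequenced from lung and colon of WT and Cd177 KO mice, and FPKM per gene are used here as the authors deposited them, 1 table per tissue; per the submitters' processing notes, HISAT2 2.1.0, StringTie 1.3.3b and the build mm39 were named, with no role given. Within each tissue, genes that reached 1 FPKM in 4 or more libraries were fitted with limma 3.58.1 (R 4.3.3) on log2(FPKM + 1), with 1 mean per group, all 4 groups of a tissue in 1 fit, moderated variances with a trend, and Benjamini-Hochberg adjustment over all genes tested. A difference on this scale understates the fold of low genes. Single members were also compared with exact two-sided permutation tests of FPKM, and correlations within groups with 100000 permutations (Python 3.11.15, scipy 1.17.1). The fit was also run on simulated data in which each gene had 1 spread shared by all 4 groups. Unequal spreads between groups were not covered by that check.

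Depth was read back from whole-fragment steps in low values, up to 20 fragments, where 98.6% to 99.1% of the values were whole within 0.01 of a fragment. Alternatives were a pseudocount of 0.1, no filter, values rescaled to the same sum in each library (TPM), upper quartile scaling, a fit of the compared groups alone, a replicate block, and the omission of each library. The 7 members were always named, and beside them up to 3 core clock genes and up to 2 genes of the PAR-bZIP target list with the lowest p in a comparison, up to 3 genes most like a member, and genes whose exons overlap a member. For 1 core clock gene that this rule would name, the result is not reported here. The members and all lists were chosen with earlier results of these data known. Symbols came from the annotation for 52081 of 55357 identifiers in each table.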

Additional observations from a re-analysis of the deposited data

Results flagged for a closer look

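Among the 56 groups of libraries of a member, 3 held a library far from the others of its group by Dixon's 95% criterion, which chance exceeds in about 1 in 20 groups. Ciart was 25.3 FPKM in lung KO sham 4, where the other libraries of the group were between 11.7 and 15.5 FPKM. Nfil3 was 9.21 FPKM in colon WT sham 2, where the others were between 4.22 and 5.14 FPKM. Bhlhe40 was 102 FPKM in colon KO AP 1, where the others were between 47.1 and 52.7 FPKM, and without that library Bhlhe40 was not called in AP colon (0.39, limma, adjusted p 0.113).

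Nfil3 moved in opposite directions in the tissues when KO was compared with WT in AP mice. All KO AP libraries were higher than all WT AP libraries in lung (log2 difference 0.97) and lower in colon (-1.53), and the difference between the tissues was not tested.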

How the results depend on the processing

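In WT lung, the count of members that AP changed, 2, was 0 with no filter on low values, 1 on the TPM scale, and between 0 and 2 with single libraries left out. KO against WT in AP lung went from 3 to 1 member on the TPM scale, which leaves Nfil3, and AP against sham in KO colon from 0 to between 0 and 2 with single libraries left out. All other counts stayed within 1.5 times in every alternative. TPM rescaling moved the median difference of all genes by over 0.1 in each KO against WT comparison, to -0.182 in AP lung, -0.256 in sham lung, -0.128 in AP colon and -0.151 in sham colon. The cause of the changed calls was not tested.

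Values that changed sign were all uncalled before and after. On the TPM scale these were Ciart for AP in WT lung (-0.02), Dbp for KO in AP lung (-0.15), Tef for KO in sham lung (-0.05), Nfil3 for AP in WT colon (-0.01), and, for the difference between AP responses, Ciart in lung (0.06) and Bhlhe41 in colon (-0.01). For that difference in colon, Bhlhe41 was -0.16 with a pseudocount of 0.1 and Ciart 0.05 under upper quartile scaling. Without the 6 libraries least like their groups, chosen after seeing the data, these were Bhlhe40 for AP in KO lung (-0.12), Dbp and Tef for KO in AP lung (-0.13 and 0.06), Nfil3 for KO in sham lung (0.20), Ciart for the lung difference of responses (0.24), and Dbp, Ciart and Bhlhe40 for the colon one (0.01, 0.23 and -0.08). With single libraries left out, the ranges were -0.04 to 0.12 (Ciart, AP in WT lung), -0.12 to 0.14 and -0.16 to 0.20 (Bhlhe40 and Ciart, AP in KO lung), -0.19 to 0.28 and -0.11 to 0.06 (Dbp and Tef, KO in AP lung), -0.20 to 0.12 (Nfil3, KO in sham lung), -0.02 to 0.22 (Nfil3, AP in WT colon) and -0.02 to 0.35 (Bhlhe40, AP in KO colon). For the difference of responses they were -0.19 to 0.17 (Ciart, lung), and -0.42 to 0.20, -0.11 to 0.25 and -0.15 to 0.21 (Ciart, Bhlhe41 and Bhlhe40, colon).

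Replicate numbers are shared between groups. Over all genes tested, same-numbered libraries did not deviate together on average (mean correlation between -0.246 and 0.0955 over pairs of groups). For the members alone this was not tested. In sham lung of both genotypes, the ratio of activators to Nfil3 was lowest in libraries 1 and 2 and highest in 5. It read 5.23, 7.07 and 21.9 in WT and 7.61, 8.36 and 31.9 in KO. AP lung and colon showed no such shared order. With the replicate block, 4 members were called in AP colon and 4 in sham colon, Hlf (adjusted p 0.0636) and Bhlhe40 (0.0688 and 0.0516) being lost, Bhlhe41 had -0.01 for the colon difference of responses, and the other counts were those without it. The lowest level of a member, 0.251 FPKM, lay above the worth of 1 fragment per kilobase in every library. Depth and genotype cannot be told apart in lung, nor within a treatment in colon.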
